A study of Mus musculus with 2 samples.

Results

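Deep intronic accessible regions are stretches of open chromatin that lie inside the introns of protein-coding genes, far from any place where a protein-coding transcript begins. They were taken from ATAC-seq peak lists of mouse T cells. ATAC-seq marks open chromatin by where a transposase can cut and insert. The overlapping peaks of both libraries were merged on chromosomes 1 to 19, and a merged region was kept if both libraries had a peak in it. It counted as deep intronic if its strongest summit lay in an intron, in no exon of a protein-coding gene, and at least 50 kb from every protein-coding transcription start. This gave 4956 deep intronic regions of 65318 shared regions, or 7.59%. They are set beside the 20368 shared regions in introns between 1 and 50 kb from a start, called near-intron regions here, and beside the 8286 intergenic regions at least 50 kb from every start, called far intergenic.

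Both libraries came from primary T cells of C57BL/6NJ mice and form 1 group, with no treatment or control arm. Replicates 1 and 2 are the labels' own numbers. One donor record covers them, so the number of animals behind them is not known, and sex and age are not given. The labels link to a differentiation protocol for CD4+ T cells, and the peak names carry a T-helper term, a time in hours and the term ASTARR.insert, none of which is explained in the labels; that these are ATAC-seq libraries is the labels' statement. The deposited lists hold 78104 peaks in replicate 1 and 74733 in replicate 2, and no read depth. The promoters of 9 of 9 T-cell markers (Cd3e, Cd3d, Cd3g, Cd247, Cd28, Cd5, Lck, Zap70 and Cd4) were accessible in both libraries. Accessible promoters were common: 76.5% of genes with intron sequence at least 50 kb from every start had one. Cd3d and Cd3g had the same signal in each library, so they may not be separate observations. Of 4 B-cell markers the promoter of 1, Pax5, was accessible, and of 4 myeloid markers none was. The Pax5 promoter had a signal (defined below) of 10.6 in replicate 1 and 9.96 in replicate 2. The T-cell markers ran from 2.84 and 3.24 at Cd4 to 9.91 and 10.6 at Lck. With 1 group of 2 libraries no test between groups was possible. Differences between classes of region are read against the gap between the libraries, and 95% intervals are exact Clopper-Pearson intervals that cover counting error only. Regions are not replicates.

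Distal open regions of this kind often hold enhancers, stretches of DNA that bind transcription factors and act on promoters over a distance. An enhancer in an intron may act on its host gene or on another gene nearby, and position alone does not tell which. In activated T cells, the AP-1 factors (dimers of Fos, Jun and Batf proteins), the RUNX and ETS families and the boundary protein CTCF are well known for binding distal open chromatin.

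The sequences below are the 100 bp around the summits of members that carry these sites. Each is the plus strand of mm10 (GRCm38), and capitals mark matches to the consensus of AP-1 (TGANTCA), RUNX (TGTGGTT), ETS (CAGGAAG) or CTCF, on either strand. A match is a description of the letters and not proof of a bound factor. The first pair are the strongest members with an AP-1 match, by the mean signal of both libraries, in Oxr1 (an oxidation resistance gene) and Cacna1d (a calcium channel subunit).
Oxr1, chr15:41612378-41612477: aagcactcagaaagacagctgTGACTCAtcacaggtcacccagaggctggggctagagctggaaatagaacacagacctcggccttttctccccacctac
Cacna1d, chr14:30196400-30196499: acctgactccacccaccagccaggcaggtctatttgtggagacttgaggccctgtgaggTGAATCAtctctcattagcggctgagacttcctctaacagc
The next pair are strong members with a CTCF match, though not the strongest, in the laminin gene Lama4 and in Fsip1.
Lama4, chr10:39067141-39067240: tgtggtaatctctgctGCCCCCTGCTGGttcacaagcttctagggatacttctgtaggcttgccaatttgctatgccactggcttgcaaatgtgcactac
Fsip1, chr2:118199985-118200084: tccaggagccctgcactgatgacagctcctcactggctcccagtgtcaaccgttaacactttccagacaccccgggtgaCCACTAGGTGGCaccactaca
The strongest members with a RUNX match lay in Pde4d, a cyclic AMP phosphodiesterase, and Diaph3, a formin. Both also held AP-1 matches, and the Pde4d window held 3 of them.
Pde4d, chr13:108603692-108603791: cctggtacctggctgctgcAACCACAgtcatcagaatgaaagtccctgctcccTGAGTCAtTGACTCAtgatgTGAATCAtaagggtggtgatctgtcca
Diaph3, chr14:86861686-86861785: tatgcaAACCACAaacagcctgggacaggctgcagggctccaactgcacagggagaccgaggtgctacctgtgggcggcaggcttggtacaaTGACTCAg
The strongest with an ETS match lay in Immp2l, part of a mitochondrial peptidase, and Tmcc3.
Immp2l, chr12:41167925-41168024: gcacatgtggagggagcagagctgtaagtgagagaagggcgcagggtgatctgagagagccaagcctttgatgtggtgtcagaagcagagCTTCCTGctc
Tmcc3, chr10:94426408-94426507: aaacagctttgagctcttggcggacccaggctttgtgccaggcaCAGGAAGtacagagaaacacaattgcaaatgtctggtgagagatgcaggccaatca
The last 3 are the strongest members in the lists of T-cell transcription factors, lymphocyte surface receptors and migration genes: Runx1 (a transcription factor of T-cell development), Tgfbr2 (a TGF-β receptor) and Rap1gds1 (a regulator of small GTPases).
Runx1, chr16:92620892-92620991: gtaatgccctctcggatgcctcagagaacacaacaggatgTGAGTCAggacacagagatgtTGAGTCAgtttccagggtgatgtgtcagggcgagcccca
Tgfbr2, chr9:116091201-116091300: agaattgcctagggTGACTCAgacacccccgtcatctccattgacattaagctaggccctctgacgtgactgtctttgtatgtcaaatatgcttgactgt
Rap1gds1, chr3:139000493-139000592: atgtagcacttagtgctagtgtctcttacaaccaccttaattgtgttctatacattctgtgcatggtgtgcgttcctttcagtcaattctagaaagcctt
Of these 3 windows, those of Runx1 and Tgfbr2 held AP-1 matches, and that of Rap1gds1 held none of the 4 sites.

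The signal of a region is the authors' value per peak, read as fold enrichment over local background. The Runx1 member shown above had a signal of 15.1 in replicate 1 and 14.3 in replicate 2, 74.6 kb from the nearest start. The Tgfbr2 member had 12.2 in replicate 1 and 11.7 in replicate 2, and the Rap1gds1 member had 14.9 and 14.4. The libraries were close to each other for all 3. Over all members, the median signal was 6.89 in replicate 1 and 6.58 in replicate 2 (mean 6.74 ± 0.22, SD, n = 2). It was 6.41 and 6.15 in near-intron regions, 7.28 and 7.002 in far intergenic regions, and 7.38 and 7.07 in all shared regions. Deep intronic regions were therefore above near-intron regions and below far intergenic ones in each library, by more than the SD between libraries. There was no step at 50 kb. The median of the mean signal in introns was 6.60 between 25 and 50 kb and 6.62 between 50 and 100 kb. Nearer to starts it was lower, at 5.18 between 1 and 2.5 kb and 5.37 between 2.5 and 5 kb. The signals of a member in both libraries differed by a factor with an SD of 0.25 on the log2 scale, and only 5 of 4956 members differed by more than 2-fold. Their summits lay a median of 19 bp apart. The median width was 679 bp, against 686 bp in both near-intron and far intergenic regions.

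The 3 strongest members stood apart from the rest. One in Cntnap5b, a contactin-associated protein gene, had a signal of 38.5 in replicate 1 and 36.8 in replicate 2. One in Gphn, which encodes the synaptic scaffold gephyrin, had 34.0 and 33.0. One in Camk1d, a calmodulin-dependent kinase, had 26.2 and 24.8. They were 321, 306 and 332 bp wide, under the median width of members, and none held any of the 4 sites. The next was a region in Corin, a protease gene, at 21.2 in replicate 1 and 18.9 in replicate 2. It was followed by regions in Tango6 (19.99 and 18.6), Oxr1 (20.7 and 17.6), Cacna1d (19.4 and 18.8), Lama3 (19.1 and 18.3), Immp2l (19.3 and 17.9) and Ctnnd2 (19.1 and 18.1). The Lama3 region held a CTCF match and had a higher signal in each library than the Lama4 and Fsip1 members shown above.

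Members lay a median of 85.3 kb from the nearest protein-coding start, with quartiles at 63.2 and 127 kb. Of all members, 1929 were at least 100 kb away and 23 at least 500 kb. The farthest, in the last intron of Sugct, an enzyme of glutarate metabolism, was 760 kb from a start and had a low signal of 3.81 in replicate 1 and 3.82 in replicate 2. A second Sugct region at 666 kb had 9.93 and 8.28. The third farthest, in Wwox, an oxidoreductase gene that spans a fragile site, lay at 631 kb with 4.47 and 4.03. At the 50 kb threshold, the members just inside were in Ehbp1, Stk10 and Pde11a, at 50.001, 50.004 and 50.006 kb, with mean signals of 8.45, 4.91 and 5.70. The shared regions just outside lay at 49.991, 49.971 and 49.971 kb, with mean signals of 13.3, 4.87 and 12.05.

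The nearest start belonged to a gene other than the host for 1403 members, or 28.3%. First introns held 8.37% of members and 10.3% of the eligible intron sequence. The median host intron was 36.5 kb long, and the median member lay 6.86 kb from an exon. Another member lay within 10 kb of 54.5% of members. The rule looks at starts of protein-coding transcripts alone, and 105 members lay within 1 kb of the start of a noncoding gene's transcript. Counted from the starts of all genes, the number of deep intronic regions was 1389, and from those of every transcript of protein-coding genes it was 2769.

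Deep intron made up 322 Mb of sequence and held 15.4 shared regions per Mb. Near intron held 37.2 per Mb, far intergenic sequence 8.97 and all sequence of chromosomes 1 to 19 27.2. Each library alone gave 18.6 and 17.7 regions per Mb in deep intron, in replicates 1 and 2, against 45.3 and 42.7 in near intron. Density fell with distance within deep intron: 22.2 regions per Mb between 50 and 100 kb, 14.4 between 100 and 200 kb, and 5.37 beyond 200 kb. Intergenic sequence in the same distance bands held 20.7, 12.2 and 3.58 per Mb. Of 6721 merged deep intronic regions found in any library, 73.7% were in both. The share was 74.3% in near intron and 79.0% over all merged regions. The 1021 found in replicate 1 alone had a median signal of 3.48, and the 744 found in replicate 2 alone had 3.395.

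**Figure D1:**
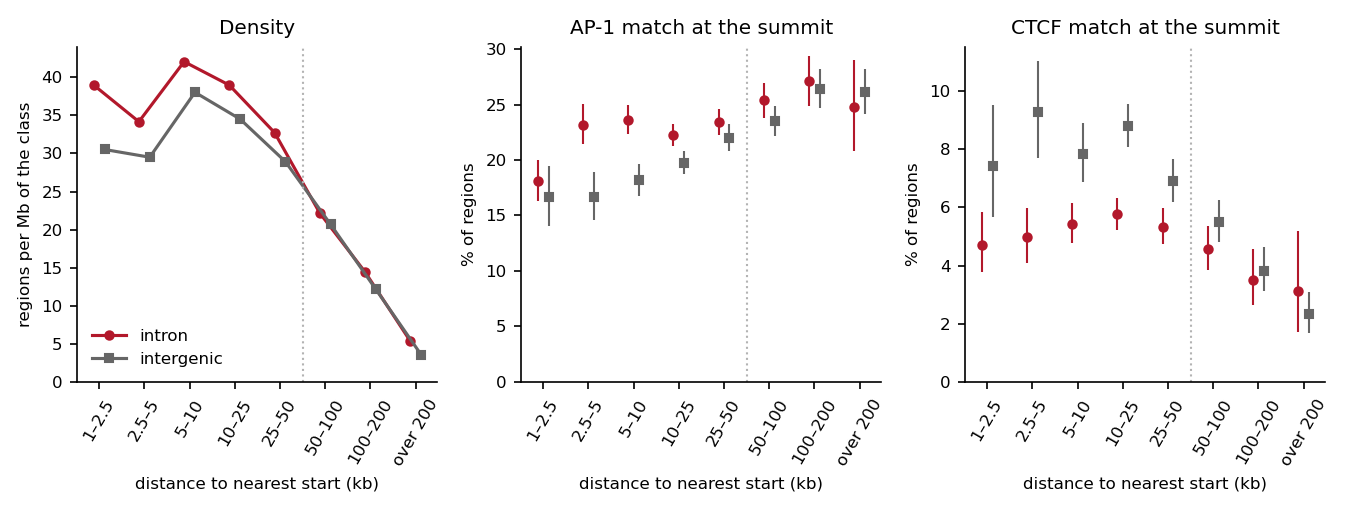
Regions found in both libraries by distance to the nearest protein-coding start (x axis, kb), in introns (red) and intergenic sequence (grey). The left panel gives regions per Mb, and the others give the percentage of regions with an AP-1 or CTCF match in the 100 bp around the summit with exact 95% intervals. The dotted line marks 50 kb, and right of it the intronic density falls to 5.37 per Mb while the AP-1 share stays near 25%.

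AP-1 was the most frequent of the 4 sites. An AP-1 match lay in the 100 bp around the summit of 1280 members, or 25.8% (95% interval 24.6 to 27.1). The background over all shared regions was 18.1%. It includes 13587 regions within 1 kb of a start, of which 3.43% had a match, and these lower it. Near-intron regions had 22.6% (22.0 to 23.2) and far intergenic regions 25.01% (24.1 to 26.0). With each library taken alone, deep intronic regions had 24.8% in replicate 1 and 24.2% in replicate 2, and near-intron regions 21.7% and 21.5%. The excess over near intron was thus larger than the gap between libraries, while the interval of far intergenic regions overlapped that of the members. The median GC content of the 200 bp around the summit was 46.5% in members, 48.0% in near-intron regions and 47.0% in far intergenic regions. Windows centred 500 bp to each side of the members' summits held a match in 3.04%. The forms with C or G in the centre (TGAGTCA and its reverse complement) occurred in 1101 members, and those with A or T (TGAATCA and its reverse complement) in 218.

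AP-1 matches went with signal. The share was 17.5% among the 778 members with a mean signal of up to 4 and 33.2% among the 1167 members over 10. The same bands gave 15.9% and 29.7% in near intron. Members with an AP-1 match had a median signal of 7.84 in replicate 1 and 7.55 in replicate 2, against 6.62 and 6.34 for members without one. Their median GC content was 45.5%, against 47.0%. The part of base composition in this difference was not tested.

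**Figure D2:**
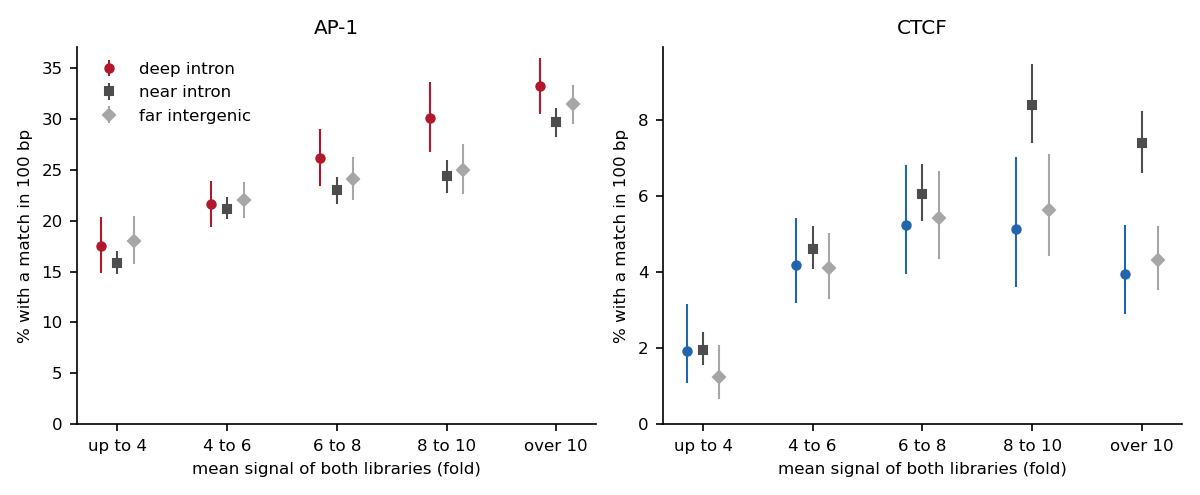
Percentage of regions with an AP-1 (left) or CTCF (right) match in the 100 bp around the summit, by band of mean signal (x axis, fold), for deep intronic, near-intron and far intergenic regions, with exact 95% intervals. The AP-1 share of deep intronic regions reaches 33.2% over a signal of 10, and their CTCF share is highest, 5.23%, between 6 and 8.

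CTCF matches were fewer in deep intron than in near intron. They occurred in 204 members, or 4.12% (3.58 to 4.71), against a background of 5.02% over all shared regions. Near-intron regions had 5.42% (5.11 to 5.74) and far intergenic regions 4.26% (3.84 to 4.72). Nearest to starts the share was not higher. It was 1.47% within 1 kb of a start and 4.72% (3.76 to 5.83) in introns between 1 and 2.5 kb. Each library alone gave 3.91% and 3.90% in deep intron, in replicates 1 and 2, and 4.92% and 4.91% in near intron. With distance the share was 4.56% between 50 and 100 kb, 3.51% between 100 and 200 kb and 3.13% (1.72 to 5.19) beyond 200 kb, and these last intervals overlap. By signal, members and near-intron regions had 1.93% and 1.95% up to 4, 4.19% and 4.61% from 4 to 6, and 5.23% and 6.05% from 6 to 8, with overlapping intervals. From 8 to 10 they had 5.11% and 8.38%, and over 10 they had 3.94% and 7.38%, with intervals that did not overlap. Far intergenic regions were like the members, with 5.64% from 8 to 10 and 4.30% over 10. CTCF matches in the members were tightly placed: of 278 within 500 bp of a summit, 79.9% lay in the central 100 bp. They sat beside the summit rather than on it, with a median offset of 33 bp and no match centred within 10 bp of it. AP-1 matches also peaked 20 to 30 bp from the summit on both sides but were present on the summit too.

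RUNX matches occurred in 324 members, or 6.54% (5.87 to 7.26), with a background of 5.25% and 2.18% in the flanking windows. Regions within 1 kb of a start, which are part of that background, had 1.60%. The shares were 6.25% in near-intron and 7.47% in far intergenic regions, and the interval of near-intron regions (5.92 to 6.59) overlapped that of the members. ETS matches occurred in 464 members, or 9.36% (8.57 to 10.2), with a background of 7.97% and 3.60% in the flanks. Regions within 1 kb of a start had 5.23%. Near-intron regions had 9.13% and far intergenic regions 8.86%, so these classes did not differ beyond their intervals. Combinations were few. AP-1 occurred in 6 of the 204 members with a CTCF match, in 58 of the 324 with a RUNX match and in 88 of the 464 with an ETS match. The products of the single shares would give 52.7, 83.7 and 120 members. CTCF occurred with RUNX in 5 members and with ETS in 7, against products of 13.3 and 19.1. RUNX and ETS occurred together in 33, near their product of 30.3. None of the 4 sites was found in 2879 members, or 58.1%. These had a median signal of 6.45 in replicate 1 and 6.21 in replicate 2, below the 7.40 and 7.09 of members with a site.

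**Figure D3:**
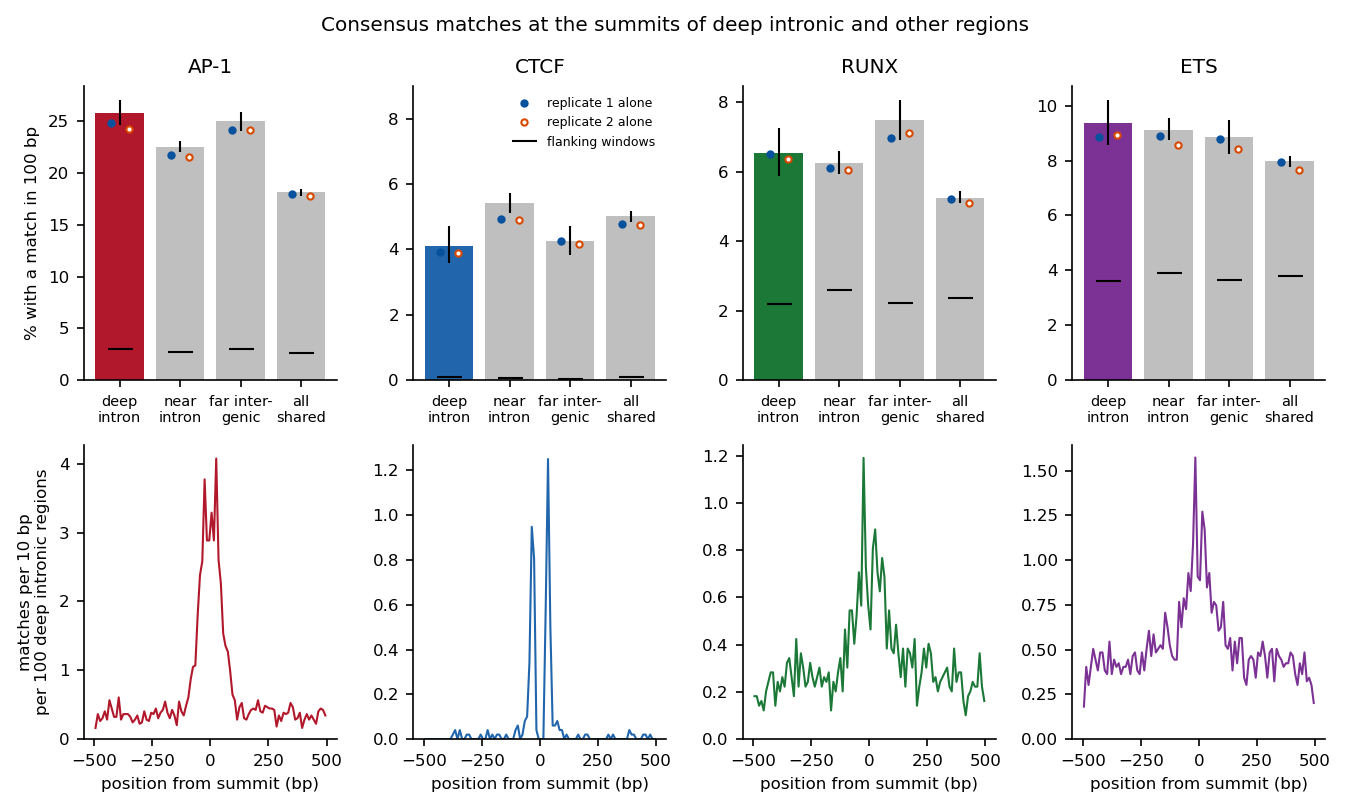
Top, percentage of regions with a match in the 100 bp around the summit for 4 consensus sites, in deep intronic regions (coloured), near-intron, far intergenic and all shared regions (grey); black lines on the bars are exact 95% intervals, dots are each library alone and dashes the windows 500 bp to the side. Bottom, matches per 10 bp per 100 deep intronic regions by position from the summit (bp). AP-1 reaches 25.8% in deep intron, and CTCF matches form a pair of peaks 30 to 40 bp from the summit.

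Of the other letters searched, the E-boxes were the most frequent in the members. That of ZEB factors (CAGGTG) was in 7.12% of members, 6.54% of flanks and 7.93% of all shared regions, and that of E proteins (CAGCTG) in 6.40%, 4.31% and 6.58%. The NF-κB consensus was found in 2.20% of members and 0.29% of flanking windows, with 1.77% in all shared regions. The IRF consensus was in 3.07% of members, 1.51% of flanks and 2.31% of all. NFAT (TGGAAAA) was in 3.67%, against 2.87% in flanks and 2.59% in all. The consensus of GATA factors, searched as AGATAAG, was no more frequent at the summits, at 0.99%, than in the flanks, at 1.34%. SP (GGGCGGG), a letter pattern of CpG-rich promoters, was in 1.17% of members and 6.41% of all shared regions.

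Host genes were counted with each region in every gene model that contains it. Of the 2662 genes with any eligible deep intron, 1336 held at least 1 deep intronic region, or 50.2%. Of the hosts, 494 held 1 region and 116 held 10 or more. The gene model with most was Gm20388, with 62, which spans 4435 kb of chromosome 8 across other genes, so its regions also lie near or in those. Next came Rad51b, a recombination repair gene, with 36 regions (48 in replicate 1 alone and 43 in replicate 2 alone). Atxn1, which encodes ataxin-1, had 32. Rora, the nuclear receptor RORα of Th17 cells and innate lymphoid cells, and Inpp4b, a phosphoinositide phosphatase, had 30 each. The protein kinase C gene Prkca, the potassium channel gene Kcnq5 and Arid1b, a subunit of BAF chromatin remodellers, had 27 each. Wwox, the splicing regulator Celf2 and Ext1, which makes heparan sulfate, had 26 each, and the RNA-binding protein gene Msi2 had 25. Bach2, a repressor that restrains effector differentiation of T cells, had 24. Fars2 and the adhesion gene Lpp had 23 each, Prkch, another protein kinase C, had 22, and Slco3a1 had 21. Tox, an HMG-box factor of T-cell development, Immp2l and Ctif had 20 each. All 20 had an accessible promoter in both libraries, as did 88.5% of all hosts and 76.5% of all genes with deep intron.

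Per length of deep intron these hosts differed widely. Prkch held 16.1 regions per 100 kb and Bach2 14.7, against 3.03 in Wwox and 2.72 in Immp2l. Ext1 held 11.5 and Prkca 10.3. Prkch and Bach2 had the most per length of the 20 and low signals: the median in Prkch was 4.29 in replicate 1 and 3.96 in replicate 2, and in Bach2 4.32 and 3.77. In Immp2l it was 8.00 and 8.91, and in Fars2 8.56 and 8.08. AP-1 matches were in 11 of 32 regions of Atxn1 and 9 of 23 of Lpp, but in 2 of 26 of Wwox and 2 of 22 of Prkch. The share over all members was 25.8%. These hosts were picked for high or low shares, the counts are small, and no difference between genes was tested.

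**Figure D4:**
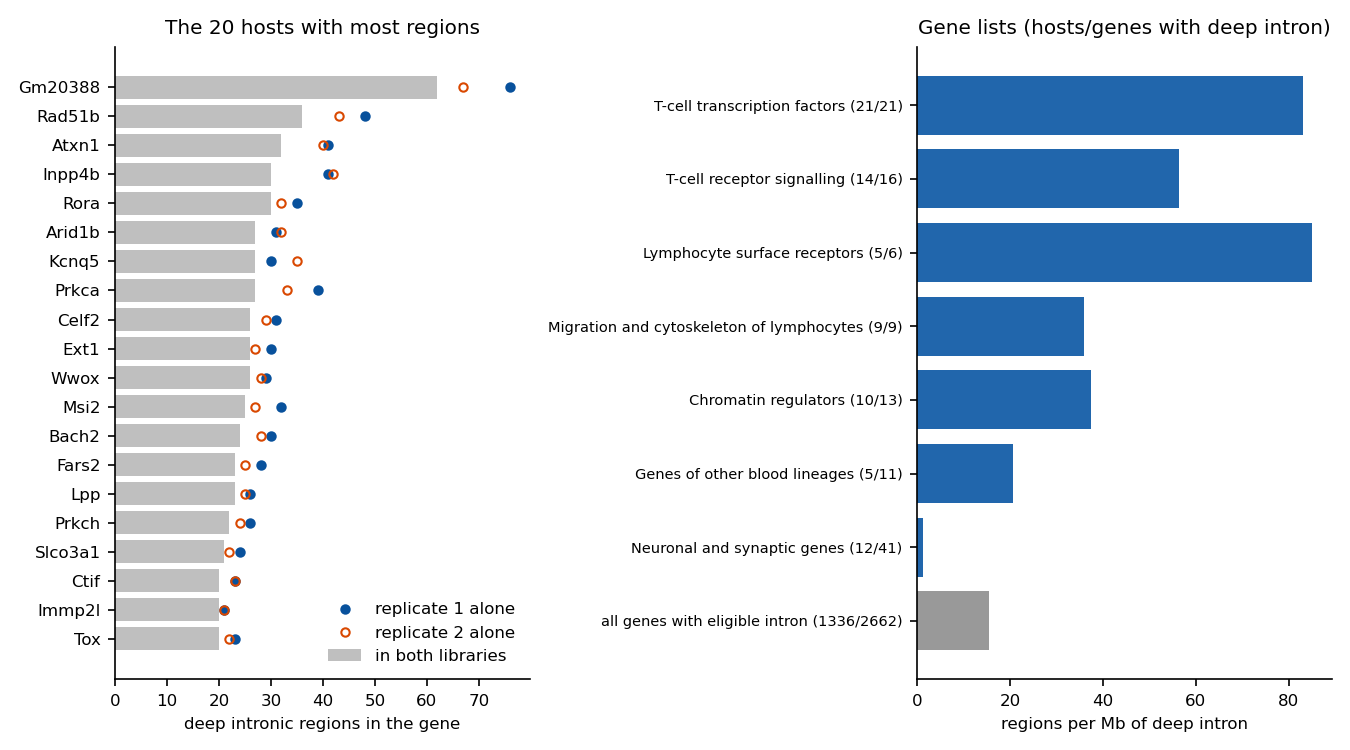
Left, the 20 genes with most deep intronic regions; bars count regions found in both libraries and dots those of each library alone. Right, regions per Mb of eligible deep intron for 7 gene lists (blue) and all genes (grey), with the number of hosts and of genes with deep intron in brackets. T-cell transcription factors reach 83.0 per Mb and neuronal genes 1.30. The lists were chosen with earlier results of these data known and differ in deep intron per gene, on which density depends.

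The lists were chosen with earlier results of these data known. Those of T-cell genes held more regions per Mb than all genes did, as did those of chromatin regulators and of other blood lineages. Of 42 T-cell transcription factors, 21 had eligible deep intron, and 21 of these 21 were hosts, against 50.2% of all genes with deep intron. They held 166 regions, or 83.0 per Mb, where all genes held 15.5 by the same count. Host share and density both depend on length, and these factors had a mean of 95.3 kb of deep intron. All genes with 50 to 100 kb were hosts in 64.0% of cases and held 27.2 regions per Mb. Rora, Bach2 and Tox held most. Their regions had a median signal of 5.59 in replicate 1 and 5.18 in replicate 2, under that of all members. AP-1 matches were in 35 of the 166 (21.1%) and CTCF matches in 2.

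In Rora the strongest region lay 349 kb from the 5′ end, with a signal of 15.2 in replicate 1 and 12.2 in replicate 2. Another, at 279 kb, had 13.5 and 13.6, and the weakest had 3.97 and 2.33. In Bach2 the strongest was also the first, 52.7 kb from the 5′ end, with 9.15 and 9.13. The others reached to 313 kb. Of the 347 kb of the Bach2 model, 163 kb was eligible, since the gene has a start inside its body and the 50 kb rule removes the sequence around it. In Tox the strongest, 66.6 kb in, had 13.5 and 13.7, and the second, at 174 kb, had 8.53 and 9.94.

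Of 35 genes of T-cell receptor signalling, 16 had deep intron and 14 were hosts, with 118 regions or 56.3 per Mb. The 16 had a mean of 131 kb of deep intron. Of all genes with 100 to 200 kb, 68.9% were hosts, at 23.8 regions per Mb. Inpp4b held 30 regions, Itpr1, an inositol trisphosphate receptor that releases calcium, 15, and Cblb, a ubiquitin ligase that limits T-cell receptor signalling, 12. In Inpp4b the strongest, 155 kb from the 5′ end, had 13.1 in replicate 1 and 13.2 in replicate 2. In Itpr1 it lay at 66.1 kb with 12.8 and 12.5, and a second at 270 kb had 11.6 and 12.3. In Cblb it had 10.3 and 8.92, and the median over its 12 regions was 3.58 and 3.62. The 2 without a region were Stim2 and Fyn, which have 6.67 and 1.20 kb of eligible deep intron.

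**Figure D5:**
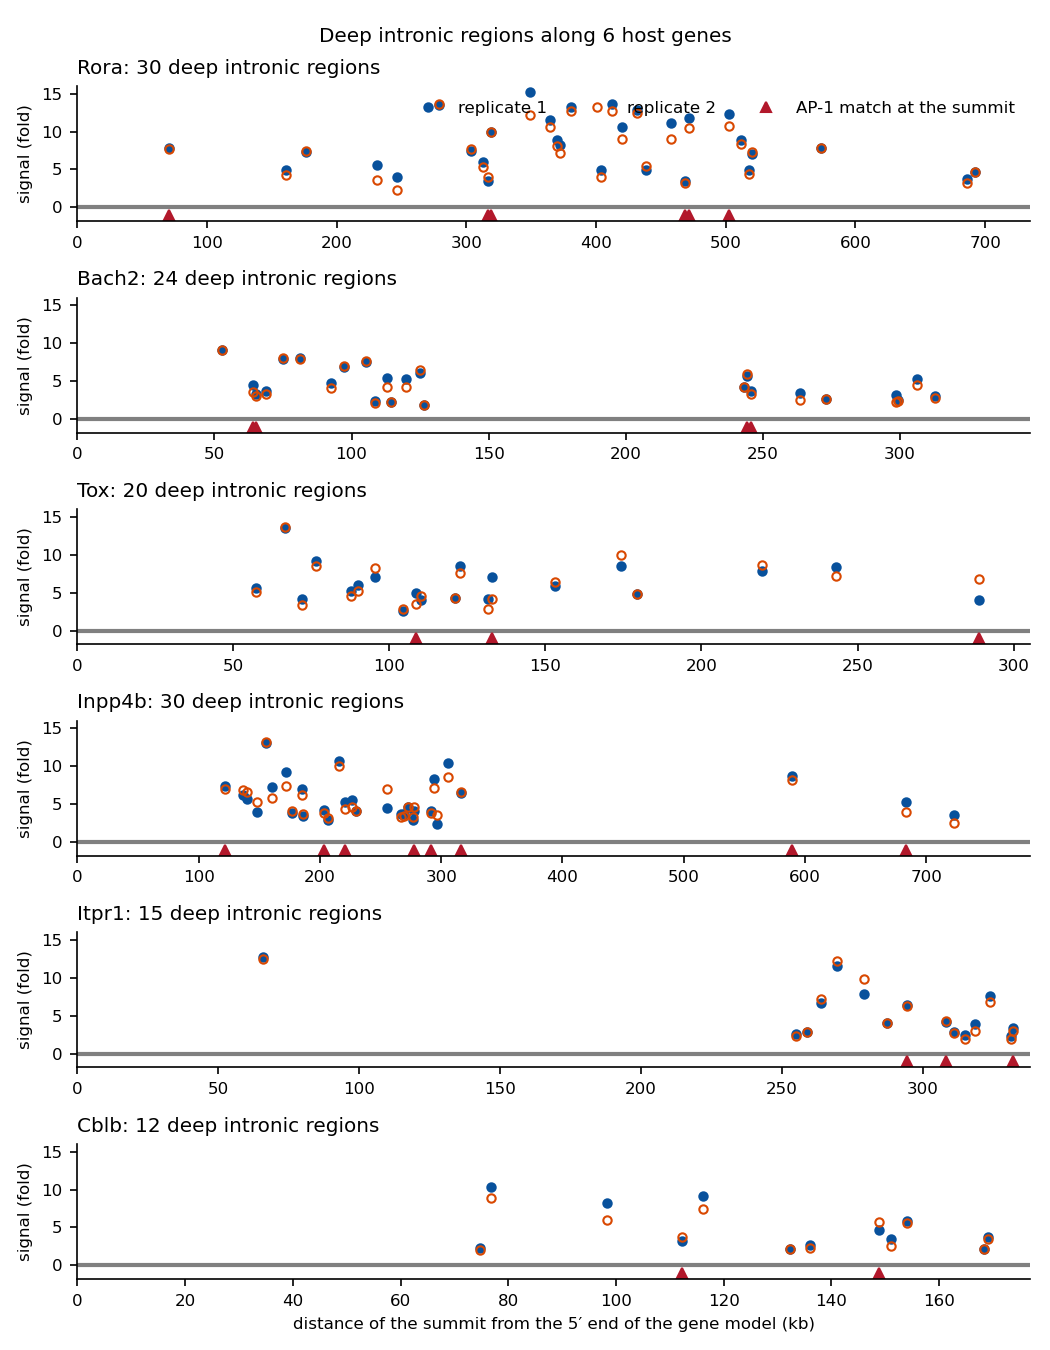
Signal (fold) of each deep intronic region of 6 host genes by distance of the summit from the 5′ end of the gene model (kb), in replicate 1 (filled) and replicate 2 (open); triangles mark regions with an AP-1 match. The genes are the 3 hosts with most regions of the lists of T-cell transcription factors and of T-cell receptor signalling. Empty stretches include sequence that the rule removes, within 50 kb of a start inside the gene, as in Bach2, where 163 of 347 kb was eligible.

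Of the lymphocyte surface receptors, 5 of 6 genes with deep intron were hosts, with 20 regions at 85.0 per Mb. These genes had a mean of 39.2 kb of deep intron. Of all genes with 10 to 50 kb, 46.5% were hosts, at 31.8 regions per Mb. Nrp1, the semaphorin receptor neuropilin, held 9, and the TGF-β receptors Tgfbr2 and Tgfbr3 held 4 each. Cd96 held none in 9.76 kb. For migration and the cytoskeleton, 9 of 9 gene models were hosts, with 60 regions at 35.9 per Mb. They had a mean of 201 kb of deep intron. Of all genes with 200 to 500 kb, 61.7% were hosts, at 13.8 regions per Mb. Arhgap15, a Rac GTPase-activating protein, held 13, and Dock2, a Rac activator of lymphocyte migration, held 11. Arhgap26, which has 2 gene models, held 12 and 7. Chromatin regulators were hosts in 10 of 13 cases, with 72 regions at 37.4 per Mb, also above the 15.5 of all genes. They had a mean of 148 kb of deep intron. Of all genes with 100 to 200 kb, 68.9% were hosts, at 23.8 regions per Mb. Arid1b had 27 regions, and the histone deacetylases Hdac9 and Hdac4 had 14 and 8. Kdm4c had none in 89.1 kb.

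Of 11 genes of other blood lineages with deep intron, 5 were hosts, or 45.5%, near the 50.2% of all genes. They held 31 regions at 20.6 per Mb, above the 15.5 of all genes. The 11 genes had a mean of 137 kb of deep intron. Of all genes with 100 to 200 kb, 68.9% were hosts, and density in that band was 23.8 per Mb, above that of the list. Ebf1, the early B-cell factor, held 13, Aff3 9 and Bank1, a B-cell scaffold, 5. Mecom, Meis1 and Plcg2 held none. The Ebf1 regions had a median signal of 9.12 in replicate 1 and 7.64 in replicate 2, above that of all members, and the promoter of Ebf1 was accessible at 9.08 and 8.59. Of 41 neuronal and synaptic genes, 12 were hosts, with 50 regions in 38.4 Mb, or 1.30 per Mb. They had a mean of 936 kb of deep intron. Of all genes with over 500 kb, 48.8% were hosts, at 4.72 regions per Mb. Dlg2, a synaptic scaffold, held 16, Tenm4, a teneurin, 10, and Magi2, another scaffold, 6. Of the 41 neuronal and synaptic genes, 19 had an accessible promoter. Among all genes with over 500 kb of deep intron, 69.5% of 59 hosts and 33.9% of 62 others had one. The 5 genes with most deep intron and no region were Lsamp (1953 kb), Ptprd (1792 kb), Macrod2 (1741 kb), Lrp1b (1736 kb) and Csmd1 (1574 kb). Of these, Macrod2 alone had an accessible promoter, at 15.9 in replicate 1 and 15.1 in replicate 2, and a region in 1 library.

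Hosts had accessible promoters more often than genes with deep intron and no region. The promoter was accessible in both libraries in 1183 of 1336 hosts, or 88.5% (86.7 to 90.2), and in 854 of 1326 others, or 64.4% (61.8 to 67.0). The background over all genes with deep intron was 76.5%. Genes with an accessible promoter held 22.0 regions per Mb of deep intron, against 3.14 for those without. The share of hosts varied with deep intron length, being 14.0% under 10 kb, 68.9% between 100 and 200 kb and 48.8% over 500 kb, so genes were also split by it. Between 100 and 200 kb of deep intron, 243 of 270 hosts and 57 of 122 others (46.7%) had an accessible promoter. Over 500 kb, the shares were 69.5% of 59 hosts and 33.9% of 62 others. Under 10 kb, they were 89.1% of 55 hosts and 79.4% of 339 others. Density itself fell with length, to 4.72 regions per Mb in genes with over 500 kb, against 36.8 in those under 10 kb.

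By chromosome, density was highest on chromosome 13, with 340 members at 23.0 per Mb, and lowest on chromosome 14, with 200 members at 10.6 per Mb.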

How the data were processed

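ATAC-seq was measured in 2 libraries of T cells. The deposited files are narrowPeak lists on mm10, per the labels, 1 per library. The aligner, the peak caller and its threshold are not given in the sources used here, and the read depth is unknown. The authors' signal in the seventh column was read as a fold ratio over local background, from its values. The authors' score was not used further, and the deposited −log10 q values served for a stricter list; the deposited −log10 p was not used. Peaks were merged where they overlapped by at least 1 bp. Genes and starts came from GENCODE mouse release 21, 20807 protein-coding genes and 52063 starts of their protein-coding transcripts. Sequence came from GRCm38, and no peak lay past its chromosome ends. A promoter was accessible if a shared region lay within 1000 bp of a start. Sites were searched on both strands in 100 bp around the summit.

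Python 3.11.15, pandas 2.3.3, pysam 0.24.0 and scipy 1.17.1 were used, and merging, classing and site search were tested on simulated data. The members and gene lists were chosen with earlier results of these data known. Named hosts are the 20 with most regions, the 3 hosts with most regions and 3 members with most deep intron and no region of each list, and the 5 genes with most deep intron and no region. Named regions are the 10 strongest, the 3 farthest and the 3 nearest to 50 kb on each side. Alternatives changed the overlap, the q value, the distance, the exons, the starts, the windows and the libraries. The strongest region of 1 gene list is not reported here.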

Additional observations from a re-analysis of the deposited data

How the results depend on the processing

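Values were recomputed under each alternative. The number of regions was taken as unchanged within 1.5 times the main count, and every other value within 1 SD between the libraries. By these rules 33 values stayed and 52 moved. The SD between the libraries was small. The number of deep intronic regions depends on the starts and the distance: it was 10040 at 25 kb and 1929 at 100 kb, 1389 with the starts of all genes and 2769 with the starts of all transcripts of protein-coding genes. Their density relative to near intron (0.41 in the report's setting) was then 0.54, 0.30, 0.31 and 0.33. This alternative of all transcripts and the one without the gene model Gm20388 were chosen after seeing the data. With −log10 q of at least 5 the median signal was 7.21, and the shares were 26.9% for AP-1, 4.32% for CTCF, 6.82% for RUNX and 9.61% for ETS. At 25 kb the shares were 24.6%, 4.73%, 6.38% and 9.44%, and at 100 kb 26.5% for AP-1 and 3.42% for CTCF. With the starts of all genes they were 25.1%, 3.82%, 7.20% and 9.50%, and in windows of 200 bp 34.8%, 4.94%, 11.4% and 15.6%, in the same order of sites. The CTCF share was 4.10% with libraries matched by 50% overlap, 4.09% with no exon of any gene, 4.06% without Gm20388 and 3.76% with the starts of all transcripts. The ETS share was 9.43% with 50% overlap and 9.68% with the starts of all transcripts. Host genes with an accessible promoter were 88.2% with 50% overlap, 87.1% at the stricter q, 88.9% at 25 kb, 87.97% at 100 kb, 88.6% with no exon of any gene, 85.8% with all genes' starts, 87.9% with promoters of 500 bp and 87.3% with all transcripts' starts. With 1 library alone, values ranged over 5720 to 6006 regions, a median signal of 5.94 to 6.01, AP-1 shares of 24.2% to 24.8%, CTCF 3.90% to 3.91%, RUNX 6.35% to 6.49%, ETS 8.87% to 8.92% and promoters 88.9% to 88.97%. The cause of these shifts was not tested. Across the 12 settings that can change site shares, deep minus near intron was between 1.64 and 4.25 percentage points for AP-1 and between −1.88 and −0.71 for CTCF. For ETS it was positive in 11 settings and −0.03 points without replicate 2.

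No depth is given, and regions under the caller's threshold are not in the lists. No paired analysis was possible because there is 1 group.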

Other observations

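Letters outside the searched list were also counted at the members' summits, and the ones named here were chosen after their values were seen. The 7-letter sequence TGACTAA, or TTAGTCA on the other strand, differs from the AP-1 consensus in its last part. It occurred in 5.79% of all members' 100 bp windows and in 1.34% of the flanking windows. Among the 2879 members with none of the 4 sites it occurred in 211, or 7.33%, against 1.25% of their flanks. TGAGTAA, or TTACTCA, occurred in 142 of these members, or 4.93%, against 1.18%. CCACTAG, which overlaps the CTCF consensus, occurred in 72 of them, or 2.501%, against 0.66%. AGCGCCC, or GGGCGCT on the other strand, occurred in 32 of them, or 1.11%, against 0.14%.

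CTCF matches in members ran along the host gene's strand in 80 cases and against it in 124, a share of 39.2% along the host strand (95% interval 32.5 to 46.3). RUNX matches ran along it in 188 cases and against it in 117, and ETS matches in 206 and 230. No test was made of these splits.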
